A study of Mus musculus with 13 samples.

Results

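The 7 genes described here encode receptors, adaptors and coat proteins through which cells take up filtered proteins, free immunoglobulin light chains among them. They were taken by symbol, whatever their values, from the 46958 genes of the count table. They are the receptor genes Lrp2, Cubn and Amn, the adaptor gene Dab2, the sorting receptor gene Sorl1, the caveolar coat gene Cav1 and the clathrin heavy chain gene Cltc. All 7 were above the filter on low counts, as were 16738 genes in all.

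Messenger RNA of bead-purified kidney glomeruli was sequenced in 13 libraries. The mice were 6 months old and of mixed descent from C57/BL6, 129/SV and BALB/c. The 3 genotypes were kFRA, labelled LCDD for light chain deposition disease (4 libraries), DH-LMP2A (4 libraries) and wild type, WT (5 libraries). As background, kFRA names a human monoclonal kappa light chain expressed by the mice, and DH-LMP2A mice carry a viral protein at the immunoglobulin heavy-chain locus that lets B cells mature without a heavy chain. Whether the LCDD mice also carried the DH-LMP2A allele is not given in the sources used here. Each library pooled 3 mice, except WT replicates 3, 4 and 5, which came from 1 mouse each. Library titles carry 4 different numeric codes whose meaning is not stated, here called code 1 to code 4 in ascending order. Code 1 covers replicate 1 of each genotype, code 2 covers LCDD and DH-LMP2A replicate 2, and code 3 covers LCDD and DH-LMP2A replicate 3 with WT replicate 2. Code 4 covers the remaining 5 libraries, the 3 single-mouse WT libraries among them.

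As background, light chains that pass the glomerular filter are retrieved by the proximal tubule. There megalin, the giant scavenger receptor encoded by Lrp2, works with cubilin (Cubn), which has no membrane-spanning part and is held at the surface by amnionless (Amn). The tail of megalin is bound by Dab2, which links cargo to clathrin-coated pits, whose scaffold is built from the clathrin heavy chain (Cltc). Caveolin 1 (Cav1) forms the coat of caveolae, flask-shaped pits abundant in endothelial cells, and Sorl1 belongs to the VPS10 family of receptors that sort cargo between endosomes and the Golgi. Purified glomeruli can carry attached pieces of tubule, so the levels below are set beside markers of tubular and glomerular cells.

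The promoter sequences of Lrp2, Cubn and Amn are shown because the levels of these 3 genes moved together from library to library. The sequences are from RefSeq (GRCm38.p6), on the strand of each gene, and run from 250 to 21 bases before its start. All 7 genes were matched in that collection, with 10 starts in all. The windows lie at chr2:69586050-69586279 (minus strand) for Lrp2, chr2:13491897-13492126 (minus strand) for Cubn and chr12:111270846-111271075 (plus strand) for Amn. Capitals mark matches on either strand to 3 motifs: the GC box GGGCGG, the E-box CACGTG and the core of the site of HNF1, a transcription factor of proximal tubule cells. That core was searched as TTAAT and ATTA with 1 base of any kind between them.
Lrp2: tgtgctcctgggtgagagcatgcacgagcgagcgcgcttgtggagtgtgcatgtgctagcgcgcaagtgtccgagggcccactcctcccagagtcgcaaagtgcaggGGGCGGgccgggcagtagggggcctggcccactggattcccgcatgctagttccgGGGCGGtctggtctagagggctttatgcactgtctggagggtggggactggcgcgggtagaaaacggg
Cubn: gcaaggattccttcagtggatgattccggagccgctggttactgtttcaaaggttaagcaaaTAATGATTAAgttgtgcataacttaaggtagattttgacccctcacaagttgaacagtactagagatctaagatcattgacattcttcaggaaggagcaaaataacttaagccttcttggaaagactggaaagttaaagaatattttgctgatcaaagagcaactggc
Amn: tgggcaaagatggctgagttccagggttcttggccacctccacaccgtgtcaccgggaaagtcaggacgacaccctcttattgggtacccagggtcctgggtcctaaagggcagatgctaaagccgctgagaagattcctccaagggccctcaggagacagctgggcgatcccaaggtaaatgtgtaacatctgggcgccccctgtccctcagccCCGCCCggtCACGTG

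The Lrp2 window held 2 GC boxes, at 143 to 138 and 88 to 83 bases before the start. The Cubn window held 1 match to the HNF1 core, TAATGATTAA, at 188 to 179 bases before the start. In the Amn window a GC box (35 to 30 bases) and an E-box (26 to 21 bases) lay side by side, with no overlap. Over 32851 promoter windows of the same length, 0.368% held the HNF1 core, 5.35% the E-box and 29.8% the GC box. No motif was found in all 3 windows, the GC box being in those of Lrp2 and Amn, and a match describes letters only. Lrp2 spans chr2:69424340-69586065, Cubn chr2:13276338-13491813 and Amn chr12:111271111-111276426 in the GENCODE annotation of GRCm38. The positions above count from the RefSeq starts, which differ from these spans. The end of the Lrp2 window lies inside the GENCODE span of Lrp2. Sequence after the RefSeq start was found in a GENCODE transcript of Lrp2 and of Amn, but in none of Cubn.

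The libraries held 16687509 to 30587890 counts assigned to genes. Podocyte markers, the defining transcripts of glomeruli, summed to between 7456 and 35396 CPM (counts relative to the library total, scaled between libraries by edgeR's TMM factors) over the 13 libraries. By genotype they summed to 7456 to 32330 CPM in LCDD, 16932 to 32987 in DH-LMP2A and 15666 to 35396 in WT. Of the 12, 0 had a log2 fold change above 0 for LCDD against either other genotype. At an adjusted p under 0.05 in edgeR, 1 was lower in LCDD than in WT and 0 than in DH-LMP2A. The 24 proximal tubule markers summed to 842 to 2951 CPM in LCDD, 789 to 5604 in DH-LMP2A and 125 to 4822 in WT. None of the 24 was at 0 in any library, and the lowest single count was 7. Within WT, replicate 1 stood apart at 4822 CPM, the other 4 libraries lying between 125 and 757. Transcripts of the Y-linked gene Ddx3y were at 0 or 1 count in 4 of 5 WT libraries and at 197 to 2296 counts in the other 9 libraries. The labels do not give the sex of the mice, and the effects of sex and genotype cannot be told apart in the comparisons with WT. Ddx3y also differed between LCDD and DH-LMP2A libraries of the same code. It stood at 84.9, 11.1, 100 and 8.20 CPM in LCDD replicates 1 to 4, and at 50.0, 85.1, 24.8 and 53.0 CPM in DH-LMP2A replicates 1 to 4. Sex can thus not be taken as equal within these pairs. Glomerular endothelial markers summed to 5986 to 12767 CPM in LCDD, 4426 to 10126 in DH-LMP2A and 9139 to 12901 in WT.

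**Figure D1:**
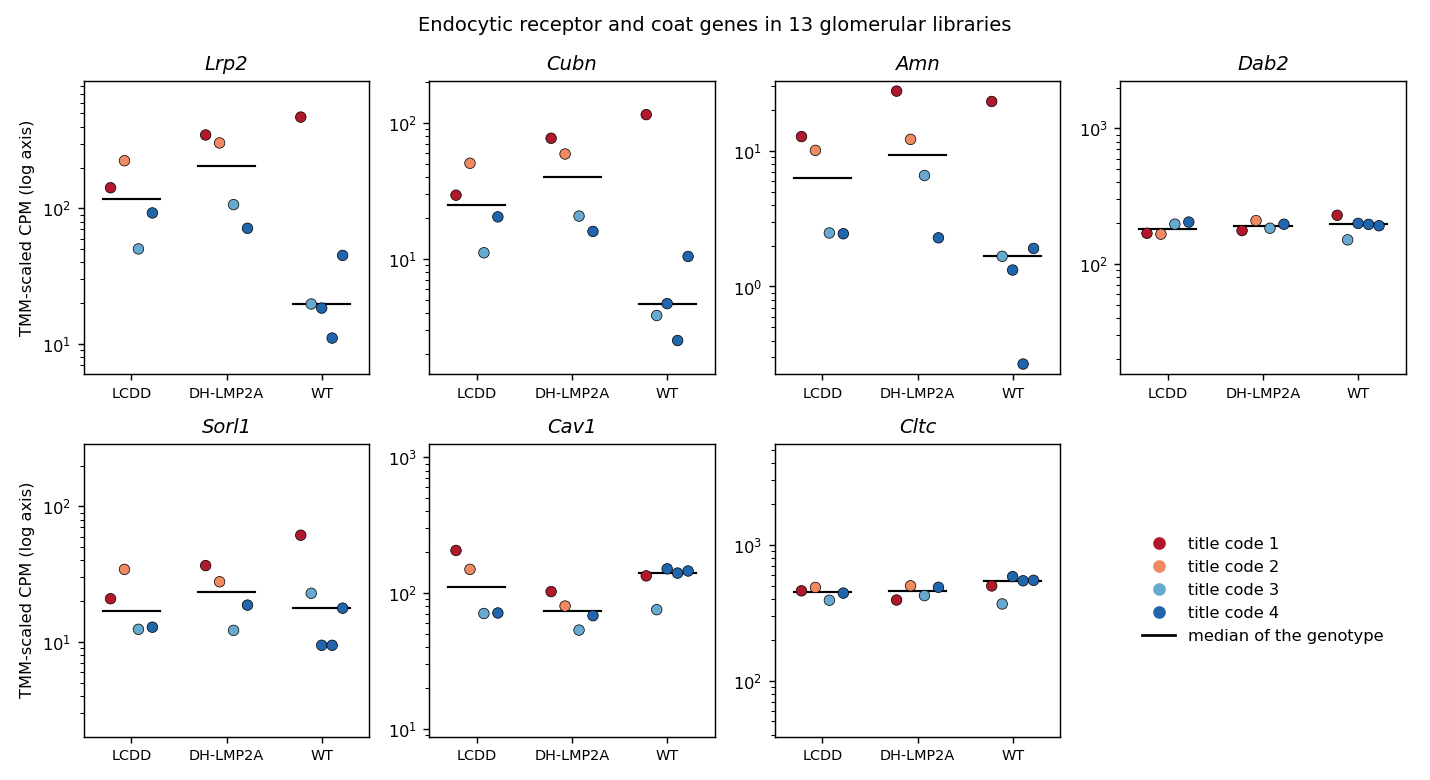
TMM-scaled CPM of the 7 genes (log axis) in each of the 13 libraries, grouped by genotype and coloured by title code; bars mark medians. Lrp2, Cubn and Amn spread 42.4-fold or more over the libraries, Dab2 1.52-fold and Cltc 1.59-fold.

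None of the 7 genes differed between LCDD and DH-LMP2A glomeruli at an adjusted p under 0.05 (edgeR's quasi-likelihood test, Benjamini-Hochberg over all genes tested). Of all genes tested, 334 (2.00%) passed in that comparison. None of the 7 passed between LCDD and WT, where 1.84% of all genes did, or between DH-LMP2A and WT, where 0.627% did. At an unadjusted p under 0.05 the counts were 0, 0 and 1 of 7, the 1 being Cav1 between DH-LMP2A and WT, and DESeq2 called 0 of 7 in each comparison. With the title code as a block, which pairs LCDD with DH-LMP2A libraries, 1021 genes (6.10%) passed between these 2 genotypes, and again 0 of 7. The groups of every comparison overlapped for each of the 7 genes. The p-values measure the spread between these libraries, most of which are pools.

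Per kilobase of annotated exon, the order of the mean levels over all libraries was Cltc, Cav1, Dab2, Lrp2, Amn, Cubn, Sorl1. In RPKM (CPM per kilobase), Cltc stood at 55.4 ± 7.79 (SD, n = 13), Cav1 at 32.4 ± 13.3 and Dab2 at 25.9 ± 2.80. The receptor genes followed with Lrp2 at 8.77 ± 8.75, Amn at 4.76 ± 5.21 and Cubn at 2.17 ± 2.28, and Sorl1 closed the order at 2.02 ± 1.29 (SD, n = 13 each). Each neighbouring pair in this order overlapped over the libraries. The ranges of Cltc (43.2 to 68.6 RPKM) and Dab2 (20.6 to 31.2 RPKM) did not. The clathrin coat and adaptor transcripts were thus abundant and steady, while those of the megalin complex were lower on average and very uneven between libraries.

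The megalin complex genes varied more between libraries than almost all other genes. Lrp2 stood at 142, 225, 50.3 and 92.6 CPM in LCDD replicates 1 to 4, and at 347, 303, 107 and 71.4 CPM in DH-LMP2A replicates 1 to 4. In WT replicates 1 to 5 it stood at 470, 19.8, 18.5, 11.1 and 45.1 CPM. The highest and the lowest library were thus both WT, and apart from WT replicate 1 every WT library lay below every LCDD and DH-LMP2A library. Cubn stood at 29.5, 50.6, 11.1 and 20.4 CPM in LCDD and at 77.3, 59.2, 20.7 and 15.9 CPM in DH-LMP2A. In WT it stood at 115, 3.83, 4.68, 2.51 and 10.4 CPM, with the same library highest and the same library lowest as for Lrp2. Amn stood at 12.7, 10.05, 2.48 and 2.45 CPM in LCDD, at 27.5, 12.1, 6.57 and 2.28 CPM in DH-LMP2A and at 23.0, 1.67, 1.32, 0.268 and 1.91 CPM in WT. The lowest of these values rests on 6 counts. The highest library exceeded the lowest 42.4-fold for Lrp2, 46.1-fold for Cubn and 102-fold for Amn. The SD of their log2 CPM was at percentile 98.6, 98.6 and 99.0 of all genes tested. Among the 3 single-mouse WT libraries alone, Lrp2 ranged from 11.1 to 45.1 CPM and Cubn from 2.51 to 10.4 CPM.

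The differences between genotypes were small against that spread. Between LCDD and DH-LMP2A the log2 fold change was -0.70 for Lrp2 (SE 1.05, adjusted p = 0.837), -0.63 for Cubn (SE 1.06, adjusted p = 0.856) and -0.81 for Amn (SE 1.11, adjusted p = 0.819). The 95% confidence interval for Lrp2 ran from -2.96 to 1.56, so changes in either direction of several fold were not detectable with these libraries. Between LCDD and WT the 3 log2 fold changes were 0.17, 0.02 and 0.28. Between DH-LMP2A and WT they were 0.87 (SE 0.98, adjusted p = 0.751), 0.65 and 1.09. In bulk glomeruli, fewer cells of a type and less RNA per cell cannot be told apart.

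One WT library decided the size of the differences from WT. WT replicate 1 was the only WT library of codes 1 and 2. Without it, WT libraries of codes 3 and 4 were set against LCDD and DH-LMP2A libraries of codes 1 to 4. Without WT replicate 1, the library with the most proximal tubule marker RNA of its genotype, Lrp2 was 3.13 log2 units higher in DH-LMP2A than in WT (SE 0.63, adjusted p = 0.0258). Cubn was 3.01 higher (SE 0.63, adjusted p = 0.0310), and Amn read 3.23 (SE 0.83, adjusted p = 0.0640). That is 2 of 7 genes past the threshold against 407 of 16612 genes (2.45%) in the same fit. With all 13 libraries, edgeR and DESeq2 each called 2 of the 24 proximal tubule markers higher in DH-LMP2A than in WT. For DESeq2 these were Kap and Cyp2e1, and it called no other marker of the 24. DESeq2 also called both higher in LCDD than in WT (adjusted p = 0.0126 and 0.00876), where edgeR called 0 of the 24. Sex and genotype cannot be told apart in these calls either. Without WT replicate 1, edgeR called 13 of the 24 higher in DH-LMP2A, with a median log2 fold change of 2.97 over the 24. Between LCDD and WT the same step gave 2.43 for Lrp2 (adjusted p = 0.0578), 2.37 for Cubn (adjusted p = 0.0660) and 2.43 for Amn (adjusted p = 0.142). There 4 of 24 tubule markers were called higher, and 0 of the 7 genes against 2.65% of all genes. Without any library of codes 1 and 2, Lrp2 read 1.89 between DH-LMP2A and WT (SE 0.48, adjusted p = 0.0820). Cubn read 1.74 (SE 0.49, adjusted p = 0.101). Between LCDD and WT, Lrp2 and Cubn read 1.59 and 1.54 in that fit (adjusted p = 0.149 and 0.166). With the tubule marker mean added as a covariate, and still without WT replicate 1, Lrp2 read 0.37 (SE 0.28, adjusted p = 0.437) and Cubn 0.28 (SE 0.34, adjusted p = 0.649) between DH-LMP2A and WT. In that fit none of the 24 tubule markers was called. The covariate is the mean of these same 24 markers, so this count was largely fixed in advance.

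Each of the 3 complex genes tracked the proximal tubule markers from library to library. Over the 13 libraries, Pearson's r with the mean log2 CPM of the 24 markers was 0.984 for Lrp2, 0.973 for Cubn and 0.972 for Amn. Taken within genotypes, after subtracting each genotype's mean, r was 0.978, 0.968 and 0.974. With loop, distal tubule and collecting duct markers, r over the 13 libraries was 0.796, 0.808 and 0.821. With podocyte markers it was -0.650, -0.651 and -0.718. The 3 genes thus did not go with proximal tubule markers alone. These are descriptions over libraries, several of which share a title code. The log2 level of Lrp2 minus the marker mean was 1.56 ± 0.27 in LCDD (SD, n = 4), 1.51 ± 0.30 in DH-LMP2A (SD, n = 4) and 1.74 ± 0.37 in WT (SD, n = 5), so the genotypes differed by less than 1 SD. For Cubn the same quantity was -0.63 ± 0.31, -0.75 ± 0.38 and -0.36 ± 0.46, and for Amn -2.80 ± 0.46, -2.79 ± 0.37 and -2.47 ± 0.46, in the same order and with the same n. The gap of Cubn between DH-LMP2A and WT slightly exceeded the SD of DH-LMP2A but not that of WT. With the marker mean as a covariate in the fit over all 13 libraries, the LCDD to DH-LMP2A difference of Lrp2 was 0.05 with an SE of 0.22, and its interval narrowed to between -0.43 and 0.52. Between DH-LMP2A and WT it was -0.26 (interval -0.78 to 0.25). The part that tubule content plays in the genotype differences was not tested beyond these fits.

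**Figure D2:**
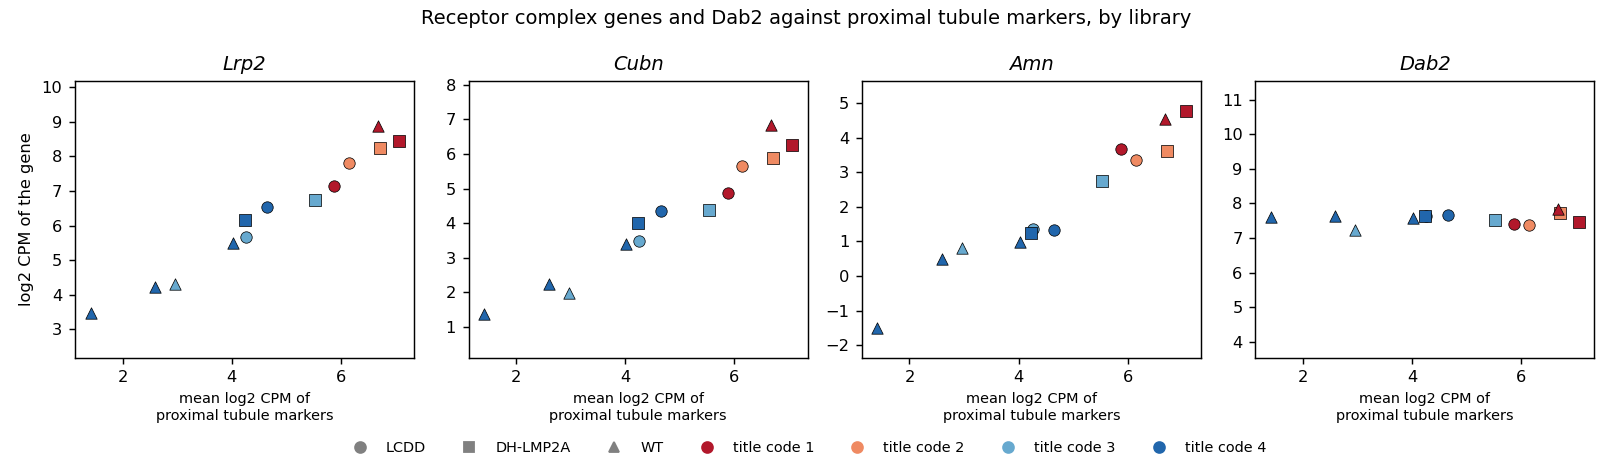
Log2 CPM of Lrp2, Cubn, Amn and Dab2 against the mean log2 CPM of 24 proximal tubule markers, 1 point per library, with shape for genotype and colour for title code. The 3 complex genes lie along a line (Pearson's r 0.972 to 0.984, n = 13), and Dab2 stays flat (r = 0.080).

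Mean levels of the 3 complex genes fell from code 1 to code 4. Mean Lrp2 was 320 CPM under code 1 (3 libraries), 264 under code 2 (2 libraries), 58.9 under code 3 (3 libraries) and 47.7 under code 4 (5 libraries). Cubn followed with 74.1, 54.9, 11.9 and 10.8 CPM, and Amn with 21.1, 11.1, 3.57 and 1.64 CPM. These means mix the genotypes unequally: code 2 has no WT library, and code 4 holds the 3 single-mouse WT libraries. Within DH-LMP2A, Lrp2 fell from code 1 to code 4. Within LCDD it was highest under code 2 (225 CPM) and lowest under code 3 (50.3 CPM). Within codes, the LCDD library was below the DH-LMP2A library for Lrp2 by 1.29, 0.43 and 1.08 log2 units under codes 1 to 3 and above it by 0.38 under code 4. With the code as a block the 3 differences between LCDD and DH-LMP2A were -0.47, -0.38 and -0.66, none called. Against WT the within-code direction was not stable: LCDD minus WT for Lrp2 was -1.73 under code 1, 1.34 under code 3 and 2.14 under code 4.

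The proportions within the complex were steadier than the levels. Lrp2 and Cubn correlated at r = 0.997 across the 13 libraries, and each was the gene most similar to the other among 13016 genes compared. The RPKM of Cubn was 0.244 ± 0.00855 of that of Lrp2 in LCDD (SD, n = 4), 0.233 ± 0.0184 in DH-LMP2A (SD, n = 4) and 0.257 ± 0.0259 in WT (SD, n = 5). This ratio stayed between 0.217 and 0.284 in every library while Lrp2 itself ranged 42.4-fold. Amn was looser, its RPKM ranging from 0.240 to 0.887 of that of Lrp2 over the libraries. Among the other genes most similar to them were Glyat for Lrp2 (r = 0.991), Fam151a for Cubn (r = 0.987), and Cdhr5 (r = 0.991) and Prss8 (r = 0.987) for Amn. Glyat encodes a glycine acyltransferase, Cdhr5 a cadherin of the brush border and Prss8 a membrane-anchored serine protease. An antisense transcript that overlaps exons of Cubn had at most 12 counts in any library.

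Dab2, the adaptor that couples megalin to clathrin, did not share the spread of its receptor. It stood at 169, 166, 197 and 204 CPM in LCDD, at 177, 209, 184 and 197 CPM in DH-LMP2A and at 229, 151, 200, 196 and 192 CPM in WT. Both the highest and the lowest value were WT, and the WT range held those of both other genotypes. The SD of its log2 CPM was at percentile 11.5 of all genes tested. The log2 fold change was -0.06 between LCDD and DH-LMP2A (SE 0.13, adjusted p = 0.896), with an interval from -0.34 to 0.22. It was -0.07 between LCDD and WT and -0.01 between DH-LMP2A and WT (interval -0.28 to 0.25). Pearson's r of Dab2 was 0.080 with the proximal tubule markers and 0.197 with Lrp2 (n = 13 libraries). Its most similar genes were Tbck, Mfn1 and Strbp (r from 0.882 to 0.891). Dab2 lies at chr15:6299788-6440712.

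Sorl1 was a low transcript that moved partly with the complex genes. It stood at 20.9, 34.4, 12.4 and 12.9 CPM in LCDD and at 36.7, 27.9, 12.2 and 18.8 CPM in DH-LMP2A. In WT it stood at 61.3, 22.9, 9.49, 9.49 and 17.8 CPM. As for Lrp2, WT replicate 1 was the highest library, and the code 1 and code 2 means (39.6 and 31.1 CPM) exceeded those of codes 3 and 4 (15.9 and 13.7 CPM). The highest library exceeded the lowest 6.47-fold. Pearson's r over the 13 libraries was 0.749 with the proximal tubule markers, 0.768 with loop, distal tubule and collecting duct markers and 0.788 with Lrp2. Between LCDD and DH-LMP2A the log2 fold change was -0.25 (SE 0.57, adjusted p = 0.899). Against WT it was -0.27 for LCDD and -0.02 for DH-LMP2A. With the tubule marker covariate these became -0.88 (adjusted p = 0.189) and -0.91 (adjusted p = 0.117), and neither passed. Its most similar genes were Sowahb, the iron exporter gene Slc40a1 and the liver glycogen phosphorylase gene Pygl (r from 0.951 to 0.966). Sorl1 lies at chr9:41964720-42124297.

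Cav1 was the gene of the 7 with the largest difference between genotypes relative to its error, and it did not pass the test. It stood at 206, 150, 70.8 and 71.4 CPM in LCDD and at 103, 80.3, 53.4 and 68.2 CPM in DH-LMP2A. In WT it stood at 134, 75.6, 151, 141 and 146 CPM. All 4 DH-LMP2A libraries were below 4 of the 5 WT libraries, the exception being WT replicate 2. The log2 fold change between LCDD and DH-LMP2A was 0.71 (SE 0.34, adjusted p = 0.402), with an interval from -0.03 to 1.45. With the title code as a block it was 0.63 (adjusted p = 0.121). The LCDD library was above the DH-LMP2A library under each of the 4 codes, by 1.01, 0.90, 0.40 and 0.07 log2 units. Without LCDD replicate 1 the difference was 0.35. Between DH-LMP2A and WT the log2 fold change was -0.76 (SE 0.33, interval -1.47 to -0.06, adjusted p = 0.359), and between LCDD and WT it was -0.05. Within codes the LCDD to WT difference was 0.62 under code 1, -0.09 under code 3 and -1.03 under code 4. Without the libraries of codes 1 and 2 it was -0.86 (SE 0.27, adjusted p = 0.164), that between DH-LMP2A and WT was -1.10, and that between LCDD and DH-LMP2A was 0.23, none called.

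Over the 13 libraries, the levels of Cav1 went with endothelial markers rather than with proximal tubule markers. Pearson's r was 0.847 with the mean of 12 glomerular endothelial markers, 0.335 with mesangial markers and -0.037 with proximal tubule markers. It was 0.414 with loop, distal tubule and collecting duct markers and -0.584 with podocyte markers. Taken within genotypes, r was 0.776 with endothelial, 0.656 with loop, distal tubule and collecting duct, 0.386 with proximal tubule and -0.802 with podocyte markers. Within genotypes Cav1 thus did not go with endothelial markers alone. The log2 level of Cav1 minus the endothelial marker mean was -2.38 ± 0.32 in LCDD (SD, n = 4), -2.56 ± 0.29 in DH-LMP2A (SD, n = 4) and -2.45 ± 0.39 in WT (SD, n = 5), so on this scale the genotypes differed by less than 1 SD. The 12 endothelial markers had a median log2 fold change of 0.46 between LCDD and DH-LMP2A and of -0.62 between DH-LMP2A and WT, with 0 of 12 called by edgeR or DESeq2 in either. At an unadjusted p under 0.05 there were 2 and 5 of 12. Between DH-LMP2A and WT, edgeR called 3 of 12 lower with the title code as a block, among 562 genes in all, and 3 of 12 with the tubule marker covariate, among 471. With that covariate and without WT replicate 1 it called 8 of 12 lower, among 452 genes, and Cav1 read -1.57 without being called. The part of endothelial content in the Cav1 values was not tested. The gene most similar to Cav1 was Entpd1 (r = 0.980), which encodes an ATP-hydrolysing enzyme of the vessel wall, followed by Ankrd29 and Palmd (r = 0.962 and 0.955). Cav1 lies at chr6:17306335-17341452.

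**Figure D3:**
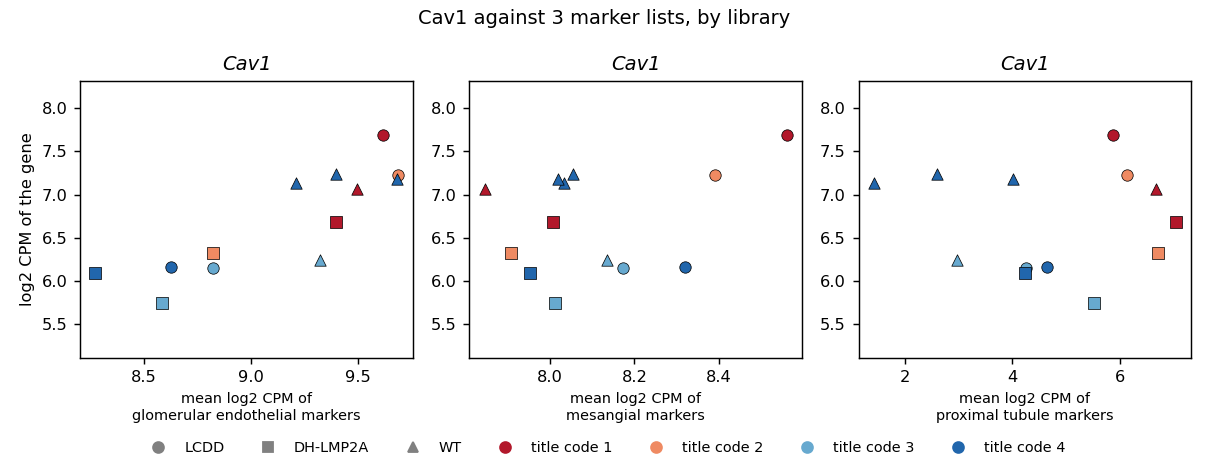
Log2 CPM of Cav1 against the mean log2 CPM of glomerular endothelial, mesangial and proximal tubule markers, 1 point per library (n = 13), with shape for genotype and colour for title code. Over all 13 libraries, Cav1 rises with the endothelial markers (r = 0.847) and shows no such order along the proximal tubule markers (r = -0.037).

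Cltc was the most abundant of the 7 genes and nearly constant. It stood at 458, 485, 391 and 441 CPM in LCDD, at 392, 499, 423 and 487 CPM in DH-LMP2A and at 498, 367, 583, 543 and 548 CPM in WT. The 3 highest values were those of the 3 single-mouse WT libraries, and WT replicate 2 was the lowest of all. The log2 fold change was -0.02 between LCDD and DH-LMP2A (SE 0.15, adjusted p = 0.972), with an interval from -0.36 to 0.31. It was -0.19 between LCDD and WT (interval -0.51 to 0.12) and -0.17 between DH-LMP2A and WT (interval -0.49 to 0.14). Its most similar genes were Suz12, Wapl and Acvr2a (r from 0.951 to 0.959), a Polycomb subunit, a cohesin release factor and an activin receptor. Cltc lies at chr11:86694351-86757565.

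**Figure D4:**
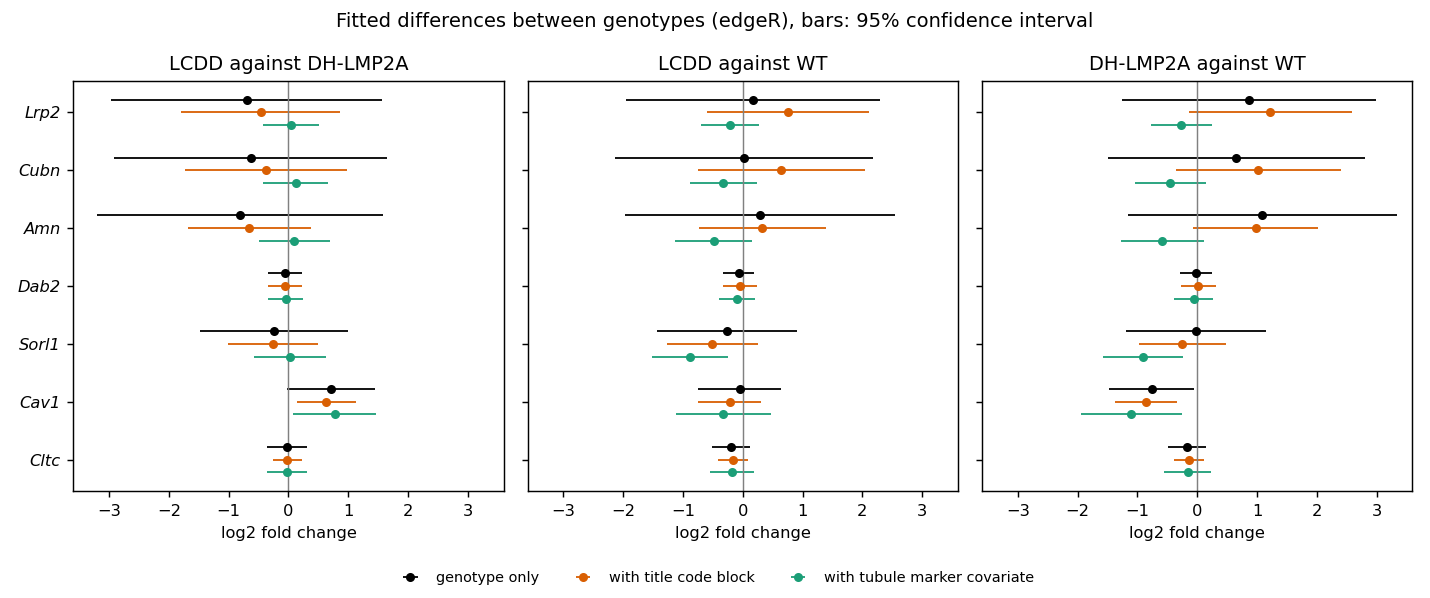
Log2 fold changes of the 7 genes in the 3 comparisons with 95% confidence intervals, from edgeR with genotype alone, with the title code as a block, and with the proximal tubule marker mean as a covariate. The intervals of Lrp2, Cubn and Amn narrow with the covariate (for Lrp2 between LCDD and DH-LMP2A from -2.96 to 1.56 down to -0.43 to 0.52), while those of Dab2 and Cltc change little.

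Around the 7 genes, 103 further genes of the uptake route were examined in 5 lists, and 100 of them were tested. Between LCDD and DH-LMP2A edgeR called none of the 100, with 12 at an unadjusted p under 0.05, and DESeq2 called 4 (Sorcs2, Sorcs3, Amph and Aak1). Their median log2 fold change was 0.04, beside -0.01 over all genes tested. With the title code as a block, 7 of the 100 (7%) were called, close to the 6.10% of all genes. Among those higher in LCDD in that fit were Sorcs2 (1.55, adjusted p = 0.0130) and Cav2 (0.75, adjusted p = 0.0288), the partner of caveolin 1. Lower were Sorcs3 (-2.11, adjusted p = 0.00924), the dynamin gene Dnm1 (-0.74, adjusted p = 0.0378), the kinase gene Aak1 (-0.56, adjusted p = 0.0205), whose product phosphorylates the AP2 adaptor, and Ager (-0.59, adjusted p = 0.0399), a receptor for glycated proteins. Without the block the adjusted p-values of the 7 ranged from 0.0695 to 0.633.

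Among 12 receptor partners and adaptors, the median log2 fold change between LCDD and DH-LMP2A was 0.25, with 9 of 12 above 0 and 0 called. Lrpap1, the chaperone of megalin in the secretory route, differed little, at 189 ± 13.8 CPM in LCDD (SD, n = 4), 183 ± 25.5 in DH-LMP2A (SD, n = 4) and 185 ± 17.5 in WT (SD, n = 5). The largest difference of this list at a mean of at least 1 CPM was that of Ager, at -0.52 without the block (SE 0.38, adjusted p = 0.633).

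Among 14 tested LDL receptor and VPS10 relatives, 9 had a log2 fold change above 0 between LCDD and DH-LMP2A, with a median of 0.17. The difference largest in size was that of Sorcs3, at -2.03 (SE 0.52, adjusted p = 0.0695) and a mean of 0.874 CPM. At a mean of at least 1 CPM it was that of Sorcs2, a VPS10 receptor like Sorl1, at 1.59 (SE 0.41, adjusted p = 0.0695). Sorcs2 stood at 1.11, 3.09, 1.78 and 1.03 CPM in LCDD and at 0.299, 0.778, 0.856 and 0.403 CPM in DH-LMP2A. The groups did not overlap, as for 7.62% of all genes tested in this comparison. WT lay between them at 0.932 ± 0.0472 CPM (SD, n = 5). Lrp1, the broadly expressed relative of megalin, stood at 624 ± 147 CPM in LCDD (SD, n = 4), 448 ± 122 in DH-LMP2A (SD, n = 4) and 496 ± 183 in WT (SD, n = 5). Per kilobase its mean of 29.4 RPKM exceeded that of Lrp2 (8.77 RPKM).

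Among 32 tested genes of the clathrin coat and vesicle scission, the median was 0.02 between LCDD and DH-LMP2A. Amph, which encodes the membrane-bending protein amphiphysin, had the largest difference, -1.68 (SE 0.57, adjusted p = 0.183). It stood at 2.80, 5.27, 1.13 and 13.1 CPM in LCDD and at 9.62, 16.7, 17.0 and 28.2 CPM in DH-LMP2A, and the groups overlapped through LCDD replicate 4. The 34 endosome and retromer genes had a median of 0.05. The largest difference there was that of Ehd3, an endosomal ATPase gene strongly expressed in glomeruli, at 0.54 (SE 0.33, adjusted p = 0.544).

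Of 8 tested caveolar genes besides Cav1, the largest difference between LCDD and DH-LMP2A was that of Cav2, at 0.83 (SE 0.32, adjusted p = 0.262). Cav2 stood at 263, 141, 91.9 and 106 CPM in LCDD and at 112, 80.2, 64.9 and 81.0 CPM in DH-LMP2A, an order of libraries close to that of Cav1. The list's median was -0.06.

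Cav3, the caveolin of muscle, was the gene of the 100 called against WT, in both comparisons, at very low counts. It had 6, 7, 11 and 48 counts in LCDD, 18, 38, 27 and 32 in DH-LMP2A and 0, 0, 3, 0 and 1 in WT. In the fit of LCDD and WT libraries alone, Cav3 did not pass the filter on low counts and was not tested. Both calls are thus of a gene that passed the filter through the DH-LMP2A libraries, where it was high. They and the values below are given as description only. The groups with WT did not overlap, as for 4.59% and 4.97% of all genes. Set against a floor of 3 counts per WT library, Cav3 was at least 5.66-fold higher in LCDD and at least 9.60-fold higher in DH-LMP2A. Without LCDD replicate 4, the library with 48 counts, the bound for LCDD fell to at least 2.75-fold. The adjusted p was 0.0266 for LCDD against WT and 0.0247 for DH-LMP2A against WT (edgeR). Without the 3 single-mouse WT libraries it was 0.223 and 0.112, and with Ddx3y as a covariate 0.233 and 0.133. Leaving out 1 library at a time gave up to 0.0851 for LCDD (without LCDD replicate 4) and up to 0.0775 for DH-LMP2A (without DH-LMP2A replicate 2). Sort1 was the other gene called between LCDD and WT by DESeq2 (-0.42, adjusted p = 0.0466), which edgeR did not call (-0.40, adjusted p = 0.164). Cav3 lies at chr6:112459505-112472872.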

How the data were processed

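The deposited table holds raw whole-number counts of reads per gene in 13 libraries, made by the authors with STAR 2.4.0a and featureCounts (Subread 1.5.0-p3) on GRCm38, per the submitters' processing notes. The library kit keeps the strand, per the labels' protocols. The strand setting, the treatment of multi-mapped reads and the annotation release are not given in the sources used here. From these counts, edgeR 4.0.16 (R 4.3.3) fitted 1 quasi-likelihood model over all 13 libraries with TMM scaling, 1 term per genotype and no covariate. Genes passed a filter with a minimum count of 10 (filterByExpr), which left 16738 and dropped 30220. P-values were adjusted by Benjamini-Hochberg over all genes tested, and a gene was called at an adjusted p under 0.05. Log2 CPM used a prior count of 2, and RPKM used the table's exon lengths. DESeq2 1.42.0 was an alternative. The code was tested on simulated data.

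The 7 genes, the pathway lists and the marker lists were chosen with earlier results of these data known. Named besides the 7 are pathway genes called in a comparison, the gene of each list of mean level 1 CPM or more with the largest absolute log2 fold change between LCDD and DH-LMP2A, and the 3 genes most correlated with each of the 7. Pathway genes called only with the block or only by DESeq2, with Lrpap1, Lrp1, Kap, Cyp2e1 and Ddx3y, were named after their values were seen. A few genes that meet these rules are not reported here. Replicates were numbered in deposition order, and the numbers pair nothing. Libraries of LCDD and DH-LMP2A with the same title code deviated together in each of 4 pairs (r of 0.153 to 0.593), so the code was used as the pairing. The mean r was 0.421 for these pairs and -0.139 for the 12 pairs with unlike codes. Some unlike pairs also deviated together (range -0.599 to 0.524), the highest being LCDD replicate 2 with DH-LMP2A replicate 1. Totals of 16687509 to 30587890 counts make counting error small for all but the lowest genes, such as Amn and Cav3. Older symbols of the table were matched for the cavin genes.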

Additional observations from a re-analysis of the deposited data

Results flagged for a closer look

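Of 36 sets of values (a gene or marker list within 1 genotype), 1 held a library well apart from its group. Chance alone flags about 1 set in 20, or 1.8 of these. Cav1 in WT replicate 2 stood at a log2 CPM of 6.24, and the other 4 WT libraries lay between 7.07 and 7.24. The gap made up 0.827 of the whole range of the WT libraries, above the critical value of 0.71 for 5 samples. WT replicate 2 was a pool of 3 mice and the library with the lowest total count, 16687509. It was also the lowest WT library for Dab2 and Cltc. It was the only WT library with more than 1 count of Ddx3y, at 197. The mean log2 CPM of its macrophage markers was 4.69, the highest of the WT libraries. Its glomerular endothelial markers summed to 9249 CPM, within the WT range of 9139 to 12901.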

How the results depend on the processing

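None of the 7 genes was called in any comparison under any alternative except 1: without WT replicate 1, Lrp2 and Cubn were called between DH-LMP2A and WT. The comparisons are limited by 4 or 5 libraries a group, by a 42.4-fold spread of Lrp2 between libraries, by 3 single-mouse WT libraries and by Ddx3y counts that separate most WT libraries from the rest. Alternatives that combine a covariate with a block or a second covariate, leave out the libraries of codes 1 and 2, or use the covariate without WT replicate 1 were chosen after seeing the data.

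The count of genes called moved more. Between LCDD and DH-LMP2A it was 334, and it was 812 with DESeq2, 153 with a filter at a mean of 5 CPM, 213 with only these 2 genotypes, 889 with the tubule covariate and 1073 with the tubule and Ddx3y covariates. It was 91 without codes 1 and 2 and 113 to 484 leaving out 1 library. Between LCDD and WT it was 308, and it was 726, 116 and 185 with DESeq2, the filter and only the 2 genotypes. It was 54 without the single-mouse WT libraries, 22 with Ddx3y, 43 with tubule and Ddx3y, 58 with the tubule covariate without WT replicate 1, 196 without codes 1 and 2, and 159 to 441 leaving out 1 library. Between DH-LMP2A and WT it was 105, and it was 458 and 54 with DESeq2 and the filter. It was 69 without the single-mouse WT libraries, 471 with the tubule covariate, 53 with Ddx3y, 310 with both, 452 with the tubule covariate without WT replicate 1, 334 without codes 1 and 2, and 29 to 407 leaving out 1 library. There the count of the 7 genes called ranged from 0 to 2. The causes were not tested.

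The title code as a replicate block gave 1021 genes called between LCDD and DH-LMP2A, 536 between LCDD and WT and 562 between DH-LMP2A and WT. With the tubule covariate added to the block, 658 genes were called between LCDD and DH-LMP2A, and 54 between DH-LMP2A and WT. Against WT not every same-code pair deviated together (r of -0.165 to 0.400 for LCDD and -0.159 to 0.568 for DH-LMP2A), so there the libraries share only a code. The block turned 1 sign, that of Dab2 between DH-LMP2A and WT (0.017). With block and covariate together, signs turned for Lrp2 (0.076) and Cubn (0.18) between LCDD and DH-LMP2A. They also turned for Lrp2, Cubn and Amn against WT, at -0.20, -0.29 and -0.27 in LCDD and -0.27, -0.47 and -0.16 in DH-LMP2A.

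Other signs that turned belong to differences not called. Cubn between LCDD and WT was -0.015 with DESeq2, -0.020 with RLE size factors and -0.024 without a filter. With the tubule covariate, Lrp2, Cubn, Amn and Sorl1 were 0.046, 0.12, 0.10 and 0.030 between LCDD and DH-LMP2A. Lrp2, Cubn and Amn were -0.22, -0.33 and -0.49 between LCDD and WT, and -0.26, -0.45 and -0.59 between DH-LMP2A and WT. Without WT replicate 1 and with that covariate, Amn and Dab2 were -0.59 and 0.12 in LCDD and -0.71 and 0.22 in DH-LMP2A. With Ddx3y, Dab2, Cav1 and Cltc were 0.25, 0.44 and 0.26 between LCDD and WT, and Dab2, Sorl1 and Cltc were 0.34, 0.22 and 0.33 between DH-LMP2A and WT. With tubule and Ddx3y covariates, Amn and Sorl1 were 0.17 and 0.11 between LCDD and DH-LMP2A. Amn, Dab2, Cav1 and Cltc were -1.22, 0.23, 0.11 and 0.30 between LCDD and WT, and Amn, Dab2 and Cltc were -1.39, 0.31 and 0.38 between DH-LMP2A and WT. Without the single-mouse WT libraries, Lrp2, Cubn, Amn and Cav1 were -1.0003, -1.15, -0.90 and 0.20 between LCDD and WT. Lrp2, Cubn, Amn and Cltc were -0.28, -0.50, -0.065 and 0.030 between DH-LMP2A and WT. Without codes 1 and 2, Dab2 was 0.086, 0.11 and 0.021 in the 3 comparisons and Sorl1 0.040 between DH-LMP2A and WT.

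Leaving out 1 library at a time, signs also turned within these ranges. Between LCDD and WT they were -0.32 to 2.43 for Lrp2, -0.50 to 2.37 for Cubn, -0.19 to 2.43 for Amn, -0.41 to 0.14 for Cav1 and -0.70 to 0.44 for Sorl1. Between DH-LMP2A and WT they were -0.11 to 0.054 for Dab2 and -0.31 to 0.68 for Sorl1, and Lrp2 and Cubn kept their sign at 0.50 to 3.13 and 0.22 to 3.01. Between LCDD and DH-LMP2A they were -0.087 to 0.039 for Cltc and -0.67 to 0.039 for Sorl1. For Lrp2, Cubn and Amn against WT the highest value is that without WT replicate 1.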
